A study of Mus musculus with 9 samples.

Results

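Interferon-stimulated genes are the genes that a cell switches on when it senses interferon. A set of 43 of them, covering the type I and type II interferon response, was followed in mouse myeloid progenitors (MPs) with and without the NUP98-HOXA10hd fusion gene (NA). The members were chosen by name and 42 of the 43 were found among the 37980 gene identifiers measured by RNA-seq. Psmb9 had no matching identifier.

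The 9 samples were Lin-ckit+Sca1- bone marrow cells on a C57BL/6 background. All came from irradiated adult mice that had received sorted multipotent progenitors (MPPs), which the study's methods mix with helper bone marrow cells. The transplantation was 3 months earlier per the labels, although the study's methods give a later month for these same samples. The 4 NA MP samples were Tdtomato+ progeny of MPPs from NA LSL/+; Vav-Cre mice, in which Cre driven by Vav releases the fusion gene across blood cells. The 5 WT MP samples were CD45.2+ cells from the control group given WT MPPs. The study's methods give CD45.2 for the recipients too, and its figure legends give donor cells as Tdtomato+ or CD45.1+. CD45.2 alone therefore does not separate donor from host or helper cells in the WT samples. Each sample was sorted from its respective recipients, without the sources used here saying whether that was 1 mouse or several, so p-values measure the spread between samples, which may be in part technical.

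The deposited values are RSEM expected counts that had been scaled by 1 constant per sample. Before scaling the samples held 5557719 to 8106141 counts, and the lowest and the highest were both NA MPs. Hoxa10, which shares sequence with the fusion, was at 129 ± 17.7 (SD, n = 4) in NA MPs and 8.05 ± 2.57 (n = 5) in WT MPs, so the groups matched their labels, although reads of the fusion and of native Hoxa10 cannot be told apart. Among 11 MP markers, which include Kit, Mpo, Elane and Prtn3, the summed scaled level was 168345 to 184338 in NA MPs and 165252 to 171791 in WT MPs. Most of this sum is Mpo (102497 to 112142 against 101201 to 105687). In the limma fit described below, 3 of the 11 were higher and 2 lower at an adjusted p under 0.05. Fcgr3 (755 to 842 against 1141 to 1246) and Myb (5537.5 to 5869 against 5944 to 6248) were lower in every NA sample. Cd34, Prtn3 and Ctsg were higher in every NA sample. Several other marker lists differed between the groups and are given after the results.

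Type I interferons bind a receptor of IFNAR1 and IFNAR2 and act through the kinases JAK1 and TYK2. A complex that contains STAT2 and IRF9 then binds the interferon-stimulated response element (ISRE) in the promoters of antiviral genes. Type II interferon acts through IFNGR1 and IFNGR2 and the gamma-activated site (GAS), and raises GTPase and antigen presentation genes. In bone marrow, interferons are known to push resting stem cells into cycle and to raise Sca-1 on progenitors.

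Interferon-stimulated genes were more often higher than lower in NA MPs, by mostly small amounts. Of the 37 members that passed the filter on low values, 22 were higher, 2 were lower (Ifitm1 and Gbp3) and 13 did not pass an adjusted p of 0.05 (limma, Benjamini-Hochberg over 11987 genes). Over all genes tested, 34.3% were called, 16.9% higher and 17.3% lower, against 64.9%, 59.5% and 5.41% of the tested members. The median log2 fold change (NA minus WT) was 0.22 over the members and -0.0081 over all genes tested. Fold changes are on the scale of log2(scaled value + 1), which understates the change of the lowest genes. Only 4 members rose at least 2-fold, namely Oas2, Ifi27l2a, Zbp1 and Rtp4, and 2.56% of all genes tested did so. Ifi27l2a passed the filter only through the NA MPs, as no WT MP sample reached 10. Zbp1 also needed its NA MP values, as WT replicates 1 and 3 were under 10 (8.63 and 8.15). The places of Ifi27l2a and Zbp1 in these counts therefore follow in part from the filter. In bulk RNA, more cells of a type and more RNA per cell cannot be told apart.

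Every NA MP sample lay above every WT MP sample in 17 tested members, and below in 2, Gbp3 and Rsad2. Together these are 51.4% of the tested members, beside 26.3% of all genes tested (13.5% above and 12.8% below). For such members the exact two-sided permutation p was 0.0159, the smallest that 4 against 5 samples allow.

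**Figure D1:**
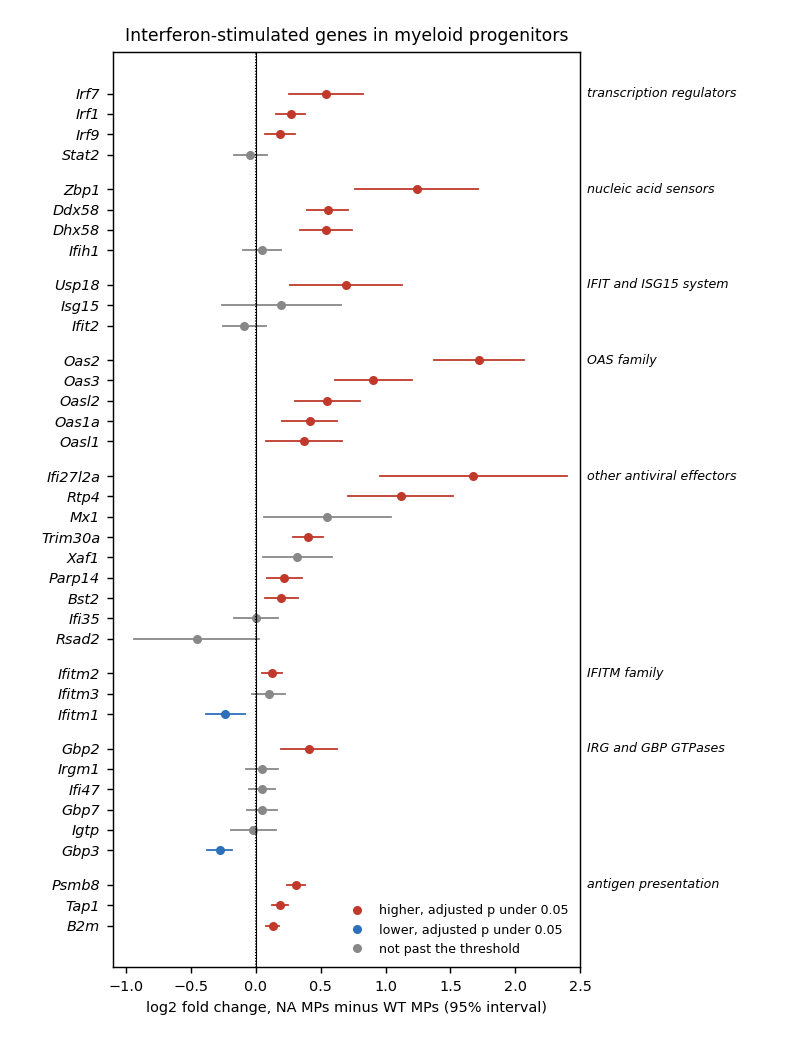
Log2 fold change of the 37 tested interferon-stimulated genes (x axis, NA MPs minus WT MPs), grouped by role on the y axis, with the 95% interval of the limma fit as bars. Red marks the 22 higher and blue the 2 lower genes at adjusted p under 0.05, and the dotted line is the median of all genes tested (-0.0081). All 5 OAS genes lie right of 0, and the GTPase genes lie on both sides.

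Among the transcription regulators, 3 of 4 were higher. Irf7, which carries the late, amplifying phase of the type I response, was at 70.8, 47.5, 60.1 and 66.1 in NA MPs and 42.1, 41.9, 36.7, 43.0 and 42.9 in WT MPs. All NA samples were above all WT samples (log2 fold change 0.54 ± 0.14 SE, adjusted p = 0.00215). Irf1, an early factor shared by both interferon types, was at 403, 442, 415 and 437 in NA MPs and 368, 327, 376, 348 and 341 in WT MPs. Its groups did not overlap (0.27 ± 0.05 SE, adjusted p = 0.00011).

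Irf9, the DNA-binding partner of STAT2, was at 415, 355, 384 and 357 in NA MPs and 317, 355, 318, 329 and 339 in WT MPs. NA replicate 2 was just under WT replicate 2, the only overlap (0.19 ± 0.06 SE, adjusted p = 0.0102), and without NA replicate 1 the adjusted p was 0.0706. Stat2 was at 274, 265, 248 and 262 in NA MPs and 268, 257, 307, 255 and 265 in WT MPs. The Stat2 groups overlapped, with a log2 fold change of -0.04 (95% interval -0.17 to 0.09, adjusted p = 0.672).

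Among the sensors of foreign nucleic acid, 3 of 4 rose. Zbp1 (chr2:173206612-173218923, minus strand, mm10), a sensor of Z-form nucleic acid linked to necroptosis, was at 27.6, 33.4, 27.8 and 31.4 in NA MPs and 8.63, 13.7, 8.15, 19.0 and 14.0 in WT MPs. The lowest NA sample exceeded the highest WT sample (1.24 ± 0.23 SE, adjusted p = 4.21e-05). Ddx58, which encodes the RNA sensor RIG-I, was at 198, 181, 203 and 197 against 126.3, 134.3, 136.5, 126.1 and 137.9 (0.55 ± 0.08 SE, adjusted p = 1.74e-07). Both groups were tight and well apart.

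Dhx58 encodes LGP2, a helicase that tunes the related RNA sensors. It was at 183, 164, 144 and 143 in NA MPs and 126.3, 110.4, 110.0, 112.1 and 84.8 in WT MPs (0.54 ± 0.10 SE, adjusted p = 2.42e-05), again without overlap. Ifih1, the gene of the sensor MDA5, was at 183 to 210 in NA MPs and 178 to 204 in WT MPs. Its log2 fold change was 0.05 (95% interval -0.10 to 0.20, adjusted p = 0.642), so the interval excludes a change of the size seen for Ddx58.

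All 5 members of the OAS family rose. OAS1 to OAS3 make the oligoadenylate that activates RNase L, and the OAS-like proteins share their fold. Oas2 (chr5:120730333-120749853, minus strand, mm10) was at 55.2, 63.7, 69.0 and 71.9 in NA MPs and 24.82, 18.82, 17.32, 20.01 and 14.91 in WT MPs. Its groups were far apart (1.72 ± 0.17 SE, 3.30-fold, adjusted p = 3.77e-11), and no other member changed more on this scale, although with a pseudocount of 0.5 Ifi27l2a did (1.80 against 1.75). Oas3 (chr5:120753098-120777661, minus strand) was at 80.4, 71.8, 52.3 and 76.0 against 31.3, 45.4, 35.7, 39.0 and 32.6 (0.91 ± 0.15 SE, adjusted p = 3.32e-06). NA replicate 3 was the lowest NA sample for Oas3 yet was above every WT sample.

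Oasl2 was at 76.8, 67.7, 72.4 and 76.0 in NA MPs and 56.1, 45.4, 48.9, 46.0 and 52.2 in WT MPs (0.55 ± 0.12 SE, adjusted p = 0.00045), without overlap. Oas1a was at 89.1 to 114 against 73.6 to 83.1 (0.42 ± 0.10 SE, adjusted p = 0.00152). However, 57.6% of its 50-base windows also occur in other gene models, most often Oas1g and Oas1b, so reads may be split among these copies. Oasl1 was the weakest of the family (0.37 ± 0.15 SE, adjusted p = 0.0442). Its groups overlapped, at 43.4 to 73.2 and 38.2 to 50.5, and its call was lost on leaving out any of 7 of the 9 samples, with an adjusted p of up to 0.225 without NA replicate 1.

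Oas3 and Isg15 both carry ISRE cores in their promoters, and Oas3 rose while Isg15 did not pass the test. The 250 bases before the start are printed for these genes and for B2m, the most abundant member, and Gbp3, the clearest fall. Sequences are from RefSeq (GRCm38.p6), written 5′ to 3′ on the gene's strand, and capitals mark the ISRE core, GAAANNGAA or, on the other strand, TTCNNTTTC, with overlapping copies merged. In order, they lie at chr5:120777660-120777909 (minus strand), chr4:156200819-156201068 (minus), chr2:122147437-122147686 (plus) and chr3:142559794-142560043 (plus).
Oas3: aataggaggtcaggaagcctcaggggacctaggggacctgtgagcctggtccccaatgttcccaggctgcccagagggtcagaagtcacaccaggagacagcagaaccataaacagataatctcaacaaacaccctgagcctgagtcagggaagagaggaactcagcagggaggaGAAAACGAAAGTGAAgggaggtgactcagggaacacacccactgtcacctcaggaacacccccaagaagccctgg
Isg15: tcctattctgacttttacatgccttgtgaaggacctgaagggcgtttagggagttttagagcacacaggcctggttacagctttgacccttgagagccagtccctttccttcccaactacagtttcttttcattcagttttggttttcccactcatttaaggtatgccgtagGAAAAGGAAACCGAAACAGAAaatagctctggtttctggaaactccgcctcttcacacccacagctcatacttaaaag
B2m: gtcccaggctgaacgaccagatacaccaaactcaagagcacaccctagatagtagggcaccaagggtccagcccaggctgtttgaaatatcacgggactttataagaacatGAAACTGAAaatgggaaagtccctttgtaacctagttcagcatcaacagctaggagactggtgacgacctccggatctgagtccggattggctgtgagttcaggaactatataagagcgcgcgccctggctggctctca
Gbp3: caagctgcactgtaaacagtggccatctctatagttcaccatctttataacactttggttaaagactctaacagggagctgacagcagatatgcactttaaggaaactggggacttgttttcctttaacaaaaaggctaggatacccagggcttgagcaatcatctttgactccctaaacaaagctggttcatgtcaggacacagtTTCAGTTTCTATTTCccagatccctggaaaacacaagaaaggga

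The Isg15 run holds 3 overlapping cores, Oas3 and Gbp3 hold 2 each, and B2m holds 1. Promoters of 34 members were in the RefSeq table, and 21 (61.8%) held the ISRE core on either strand between 250 bases before and 50 after the start, against 9.76% of 27025 genes. The GAS core, TTCNNNGAA, which reads alike on both strands, was in 9 members (26.5%), against 9.55% of genes. The ISRE core was in 8 of the 15 higher genes with a promoter entry. It was in 1 of the 2 lower and in 8 of the 12 that did not pass the test. No entry was present for Oas2, Ifi27l2a, Zbp1 and Rtp4, the members that rose at least 2-fold. Entries were also missing for Dhx58, Usp18, Parp14, Mx1 and Mx2. These shares therefore leave out the largest rises.

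In the IFIT and ISG15 group, 1 of the 3 tested members rose. Usp18, the protease that removes ISG15 from proteins and restrains IFNAR2 signalling, was at 20.4, 30.3, 25.6 and 25.6 in NA MPs and 15.1, 15.4, 13.3, 19.0 and 14.0 in WT MPs. Its groups did not overlap (0.69 ± 0.21 SE, adjusted p = 0.00994). Isg15, the ubiquitin-like modifier itself, was at 15.61, 17.19, 20.04 and 17.36 against 15.1, 13.7, 14.3, 16.0 and 16.8 (0.20 ± 0.23 SE, 95% interval -0.26 to 0.65, adjusted p = 0.546). At these low values its interval also covers the change of Ddx58.

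Ifit2, whose product binds foreign RNA, was at 141 to 180 in NA MPs and 161 to 196 in WT MPs (-0.09, 95% interval -0.25 to 0.08, adjusted p = 0.435). Ifit1, Ifit3 and Ifit3b did not reach the filter and were not tested. Ifit1 was at 6.61 to 15.2 and 4.002 to 8.556, Ifit3 at 1.011 to 7.203 and 0 to 1.864, and Ifit3b at 0 in 6 of the 9 samples and highest in NA replicate 1. The last pair share 51.2% and 45.0% of their 50-base windows, mostly with each other.

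Of the 9 tested members among the other antiviral effectors, 5 rose and none fell past the threshold. Ifi27l2a (chr12:103442167-103443680, minus strand), whose product belongs to a small family of interferon-induced membrane proteins, was at 14.4, 20.2, 15.6 and 10.8 in NA MPs and 2.16, 6.85, 5.09, 6.00 and 1.86 in WT MPs. Its fold was large but rests on few counts (1.68 ± 0.36 SE, adjusted p = 0.00022), with WT values near the 3 counts, or 2.57 to 3.24 scaled, taken as the detection floor. Rtp4 (chr16:23520291-23614222, plus strand), a chaperone of receptor transport that also binds viral RNA, was at 46.8, 33.4, 35.6 and 38.0 against 22.66, 16.26, 14.26, 21.01 and 13.05 (1.12 ± 0.20 SE, adjusted p = 1.70e-05). No WT sample reached the lowest NA sample for either gene, and Rtp4 overlaps a gene model on the same strand that shares 11.6% of its windows.

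Trim30a, a TRIM protein induced by interferon, rose by 0.40 ± 0.06 SE (451 to 484 against 316 to 384, adjusted p = 2.15e-07). Parp14, an ADP-ribosyltransferase, and Bst2, the virus tether also called tetherin, rose less, by 0.22 ± 0.07 SE (adjusted p = 0.00809) and 0.20 ± 0.06 SE (adjusted p = 0.0117). Both overlapped between the groups, and their calls depended on single samples. Without NA replicate 1 the adjusted p of Parp14 was 0.0553, and without NA replicate 2, NA replicate 3 or WT replicate 5 that of Bst2 was 0.0673, 0.0558 and 0.0539. With GC content and length in the fit, Bst2 was at 0.10 ± 0.06 SE (adjusted p = 0.185).

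The remaining effectors did not pass the threshold. Mx1, a GTPase that blocks influenza virus and is defective in C57BL/6 mice, was at 18.2 to 28.3 in NA MPs and 10.3 to 21.4 in WT MPs (0.55 ± 0.24 SE, adjusted p = 0.0738). Without WT replicate 3 its log2 fold change was 0.70 (adjusted p = 0.0316). Xaf1, a pro-apoptotic factor, was at 54.6 to 73.2 against 44.2 to 57.8 (0.32 ± 0.13 SE, adjusted p = 0.0542), and passed without NA replicate 4 or WT replicate 5 (adjusted p = 0.0356 and 0.0370).

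Rsad2, the gene of the antiviral enzyme viperin, is singled out here after its values were seen. It was at 12, 11.1, 11.13 and 14.05 in NA MPs and 17.3, 18.0, 15.3, 18.0 and 15.8 in WT MPs. Every NA sample was below every WT sample, a separation that gives an exact permutation p of 0.0159 for any gene. That p is not adjusted and only restates the separation. The limma fit gave -0.45 ± 0.24 SE and an adjusted p of 0.142. Ifi35, which binds the STAT-interacting protein NMI, had the smallest change of any tested member (0.0035, 95% interval -0.17 to 0.17). Mx2, annotated by GENCODE as a polymorphic pseudogene, and Ifi44 were below the filter, at 4.80 to 13.1 and 6.00 to 15.2 in NA MPs and 1.001 to 8.386 and 5.09 to 7.70 in WT MPs.

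**Figure D2:**
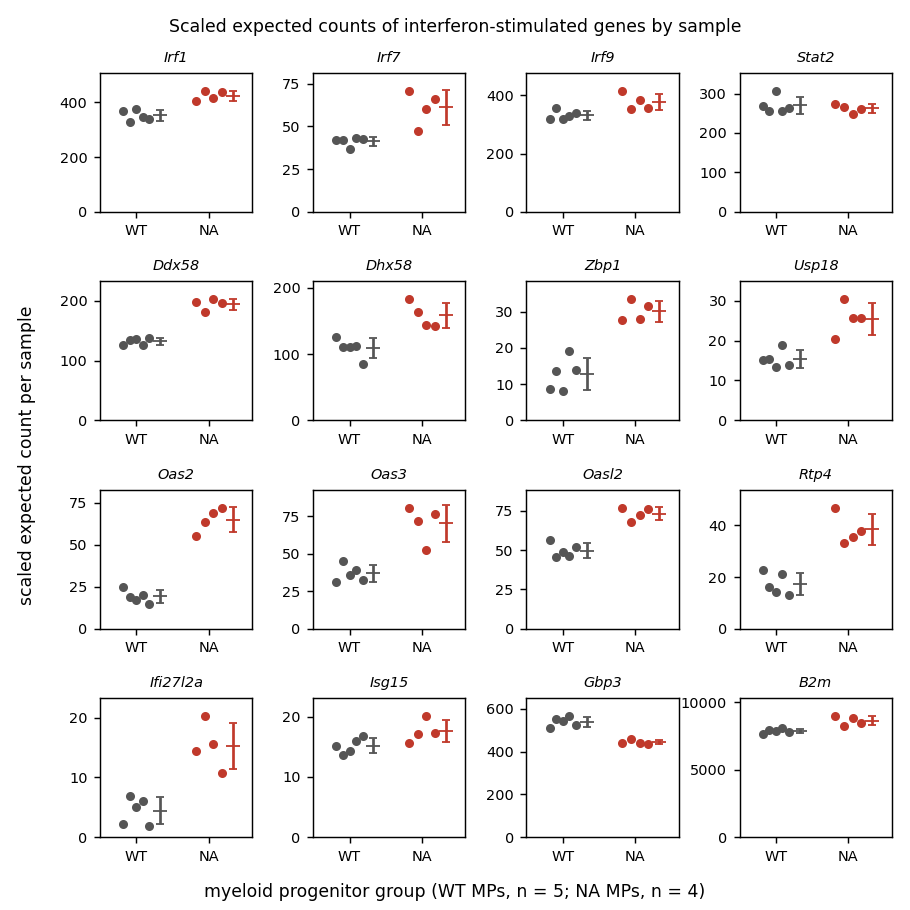
Scaled expected counts (y axis, from 0 in each panel) of 16 interferon-stimulated genes in the 5 WT MP (grey) and 4 NA MP (red) samples. Dots are samples, and the bars beside them give the mean and SD. Oas2, Zbp1, Rtp4 and Ddx58 are apart in the groups, Isg15 and Stat2 overlap, and all Gbp3 values of NA MPs lie below those of WT MPs.

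The IFITM genes, which encode membrane proteins that block virus entry, moved both ways. Ifitm2 was at 1084 to 1208 in NA MPs and 1006 to 1128 in WT MPs (0.12 ± 0.04 SE, adjusted p = 0.0113). Its call was lost without WT replicate 3 (adjusted p = 0.0506) and with GC content and length in the fit (0.03 ± 0.04 SE, adjusted p = 0.509), and 48.5% of its windows occur in other gene models. Ifitm1 was at 207, 192, 173 and 190 in NA MPs and 242, 235, 208, 237 and 199 in WT MPs (-0.23 ± 0.07 SE, adjusted p = 0.0112). Its call was lost without NA replicate 3 (adjusted p = 0.0628). Ifitm3 lay between, at 0.10 ± 0.06 SE (adjusted p = 0.219).

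The 6 GTPases that guard against intracellular microbes, which are known chiefly as targets of type II interferon, showed little common movement. Gbp2 (chr3:142620602-142638008, plus strand) rose by 0.41 ± 0.11 SE (95.1 to 121 against 69.1 to 90.4, adjusted p = 0.00219). Gbp3 (chr3:142560026-142573209, plus strand) was at 442, 458, 440 and 436 in NA MPs and 508, 553, 542, 564 and 525 in WT MPs. This was a fall in every NA sample (-0.28 ± 0.05 SE, adjusted p = 8.94e-06). Irgm1, Igtp, Ifi47 and Gbp7 had log2 fold changes of 0.05, -0.02, 0.05 and 0.05 and adjusted p of 0.504 to 0.899. The 95% intervals of these 4 ran from -0.19 at the lowest to 0.17 at the highest.

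The 3 measured members of antigen presentation rose, by small and precise amounts. B2m, the light chain of MHC class I, was at 8941, 8213, 8801 and 8466 in NA MPs and 7600, 7906, 7888, 8086 and 7785 in WT MPs (0.13 ± 0.02 SE, adjusted p = 2.62e-05). Psmb8, an inducible subunit of the immunoproteasome, was at 1693 to 1941 against 1397 to 1487 (0.31 ± 0.03 SE, adjusted p = 7.25e-10). Tap1, a chain of the peptide transporter, was at 1570 to 1622 against 1359 to 1432 (0.19 ± 0.03 SE, adjusted p = 8.79e-06). None of the 3 overlapped between the groups.

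Per kilobase of exon, a scale on which genes can be compared, B2m was the most abundant member, at a mean of 10006 in NA MPs and 9131 in WT MPs. Ifitm2 (1775 and 1628), Psmb8 (538 and 433), Ifitm3 (457 and 426) and Bst2 (410 and 358) followed. The large folds lay elsewhere. The 15 tested members with a mean scaled value under 100 had a median change of 0.55 (log2), and 11 of them rose while 0 fell. The 22 above that level had a median of 0.11, and 11 rose while 2 fell. All genes tested were not split by level, so a general link of fold size to level cannot be told apart from a trait of these genes. Ifi27l2a, among the 15, passed the filter only through the NA MPs, and Zbp1, also among them, needed its NA MP values. The NA samples did not move equally: the median log2 ratio to the WT mean over the 37 tested members was 0.32, 0.26, 0.21 and 0.16 in NA replicates 1 to 4, and NA replicate 1 was the highest NA sample for 18 members while NA replicate 4 was the lowest for 15. The WT samples ranged from -0.04 to 0.04. Leaving out each sample in turn gave 20 to 23 higher and 1 to 2 lower members.

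Of 99 other genes of the interferon pathway, 80 were tested, and 30 of these were higher while 4 were lower. Over all genes tested, 16.9% were higher and 17.3% lower. Of the 30, 23 belong to the list of other interferon-induced genes. The log2 fold changes of the 80 had a median of 0.10. The interferon genes that were looked up gave no signal. Ifna1 had no matching identifier, and only Ifna2 and Ifna4 were read from the Ifna family. Ifna2, Ifna4, Ifnb1, Ifng, Ifnl2, Ifnl3 and Ifne were listed at 0 in all 9 samples, and Ifnk was at or under the value of 1 read in every sample. A count of 0 allows up to 3 counts, 2.480 to 3.601 on the scaled values. This limit covers counting error only, and the polyA RNA of sorted progenitors says nothing of interferon made by other marrow cells.

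Among receptors and kinases, 2 of 8 tested genes rose and 0 fell, a share called below the 34.3% of all genes tested. Ifnar2 was at 723 to 775 in NA MPs and 621 to 679 in WT MPs (0.18 ± 0.04 SE, adjusted p = 0.00057), and Il10rb, a receptor chain for interferon lambda and interleukin 10, rose by 0.37 ± 0.07 SE (adjusted p = 1.86e-05). Ifnar1, Ifngr1 and Ifngr2 were at 0.02, -0.04 and -0.04 (adjusted p = 0.775, 0.386 and 0.734). Of 9 transcription factors, Irf5 (0.43), Stat3 (0.28) and Irf2 (0.22) rose and 0 fell, a share called close to the 34.3% of all genes tested. Irf8, a factor of monocyte and dendritic fate, was at -0.04 (adjusted p = 0.755).

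Of 6 feedback inhibitors, Socs3 rose (1.36 ± 0.30 SE, at 11.1 to 34.5 against 4.32 to 10.2). Most WT MP values of Socs3 were under 10, so it needed its NA MP values to pass the filter. Socs1, the classical brake on interferon receptors, was at 8.40 to 15.7 and 6.00 to 10.2 (adjusted p = 0.294). Of 13 sensing genes, Unc93b1, which carries Toll-like receptors to endosomes, rose by 0.30. Tlr3, a receptor of double-stranded RNA, fell by 1.08 on the log2 scale (3.31 to 11.1 against 9.32 to 18.3), with overlap between the groups. Most NA MP values of Tlr3 were under 10 and near the 3 counts taken as the detection floor. Tlr3 therefore needed its WT MP values to pass the filter, and its place among the calls follows in part from it. Socs3, Unc93b1 and Tlr3 were the only calls among the feedback and sensing genes. In each list the share called was below the 34.3% of all genes tested.

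Of the 44 other tested interferon-induced genes, 23 rose and 3 fell (Cmpk2, Isg20 and Pnpt1), beside 16.9% and 17.3% of all genes tested. Among the 23, Oas1g passed the filter only through the NA MPs, as no WT MP sample reached 10. Its place in this count therefore follows in part from the filter. The largest rises were Cxcl10, a T cell attractant (1.49 ± 0.46 SE), Slfn5 (1.40 ± 0.17 SE) and Oas1c, a further OAS gene (1.17 ± 0.21 SE). Cxcl10 was at 7.08 to 25.6 against 0.856 to 11.2. Most of its WT MP values were under 10, so its NA MP values were needed to pass the filter. Its call was lost without NA replicate 3, WT replicate 1 or WT replicate 4 (adjusted p = 0.0545, 0.0699 and 0.0543). Cmpk2, the neighbour and usual partner of Rsad2 in the antiviral response, fell in every NA sample (120 to 139 against 165 to 207, -0.52 ± 0.08 SE, adjusted p = 1.48e-06).

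These other induced genes include some of class I presentation, which are picked out here after their values were seen and form no list of their own. Tap2 (0.44), H2-T23 (0.43), Tapbp (0.32), H2-D1 (0.23), H2-K1 (0.18), Psmb10 (0.19) and Psme1 (0.15) were higher, and Psme2 (0.09, adjusted p = 0.128) did not pass. These H2 genes share 9.63% to 13.6% of their windows with other gene models, most often class I genes. Ly6a, the gene of Sca-1, was low as the Sca1- gate implies, at 17.2 to 23.1 in NA MPs and 12.23 to 23.01 in WT MPs (0.25 ± 0.23 SE, adjusted p = 0.420).

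**Figure D3:**
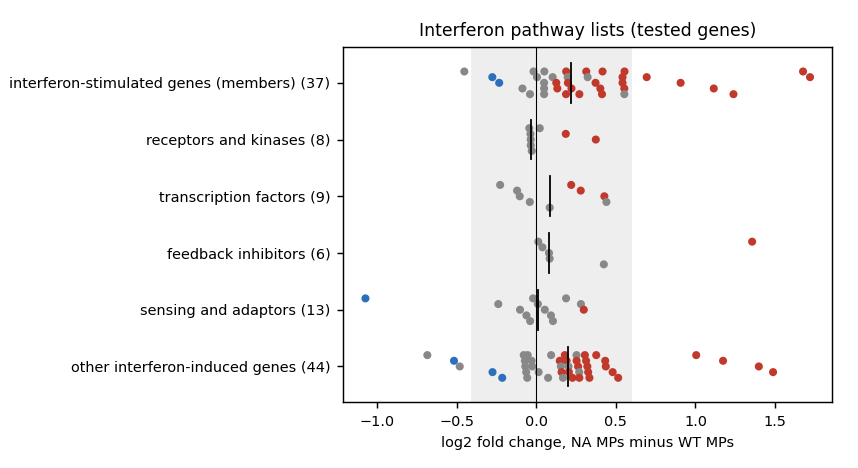
Log2 fold change (x axis, NA MPs minus WT MPs) of each tested gene in the member set and in 5 lists of other interferon pathway genes, with the number tested in brackets. Red dots are higher and blue dots lower at adjusted p under 0.05, grey dots did not pass, black ticks are list medians, and the grey band spans the 5th to 95th percentile of all genes tested (-0.41 to 0.59). The members and the other induced genes have their medians at 0.22 and 0.20, and the median of the receptors and kinases is at -0.03.

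Marker lists of other cells moved with the groups, and their part in the results was not tested. The summed scaled level of 13 pro- and pre-B genes was 1480 to 2635 in NA MPs and 386 to 423 in WT MPs, and 12 of the 12 tested were higher. Of 13 tested erythroid genes, 11 were lower (5483 to 6953 against 10122 to 11184). Of 7 tested mast cell and basophil genes, 6 were higher (2709 to 3233 against 1450 to 1584). The neutrophil list was at 3779 to 5794 and 3248 to 3764, and the monocyte and macrophage list at 11748 to 13438 and 10676 to 11529. Within the latter, 8 of the 13 tested genes were higher and 3 lower. C1qa, C1qb and C1qc were at 36.4 to 126.05 in NA MPs and 8.56 to 21.01 in WT MPs. Ccr2 (387 to 444 against 584 to 662), Cx3cr1 (120 to 134 against 137 to 158) and Vcam1 (335 to 443 against 445 to 510) were lower in every NA sample. The conventional dendritic (592 to 634 against 464 to 525) and mature B (1549 to 1638 against 1145 to 1267) sums were higher in every NA sample, and the eosinophil sum was lower (911 to 1522 against 1536 to 1924). Most of the mature B sum is Cd37 (1526 to 1604 against 1128 to 1247), with Ms4a1, Fcer2a, Cr2 and Fcmr under 10 in every sample. Most of the conventional dendritic sum is Flt3 (439 to 541 against 326 to 403). Of the 5 tested genes on that list 2 were higher and 1 lower, and Zbtb46 was lower in every NA sample (25.3 to 38.0 against 69.3 to 83.8). Of 6 tested eosinophil genes, 1 was higher and 3 lower. Prg2 was lower in every NA sample (328 to 733 against 904 to 1167), and Siglecf was higher in every NA sample (436 to 452 against 311 to 353).

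Plasmacytoid dendritic cells are strong producers of interferon and carry Bst2 and Irf8, which are on their list. That list was at 3341 to 4151 in NA MPs and 3345 to 3594 in WT MPs, with Klk1 at 0 and Siglech, Ly6d and Ccr9 under 10 in every sample. Of its 5 tested genes, 4 were higher and 0 lower, among them Spib (15.6 to 40.4 against 0.932 to 5.09) and Tcf4 (571 to 647 against 400 to 425), and most of the sum is Irf8 (1828 to 2429 against 2120 to 2333). The T and NK list was low (87.6 to 108 against 39.4 to 56.0), with Cd3e and Cd3g at 0. Of 17 tested immediate early genes, which respond within minutes to stimulation and cell handling, 14 were higher, with sums of 16335 to 32709 in NA MPs and 5671 to 8910 in WT MPs.

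**Figure D4:**
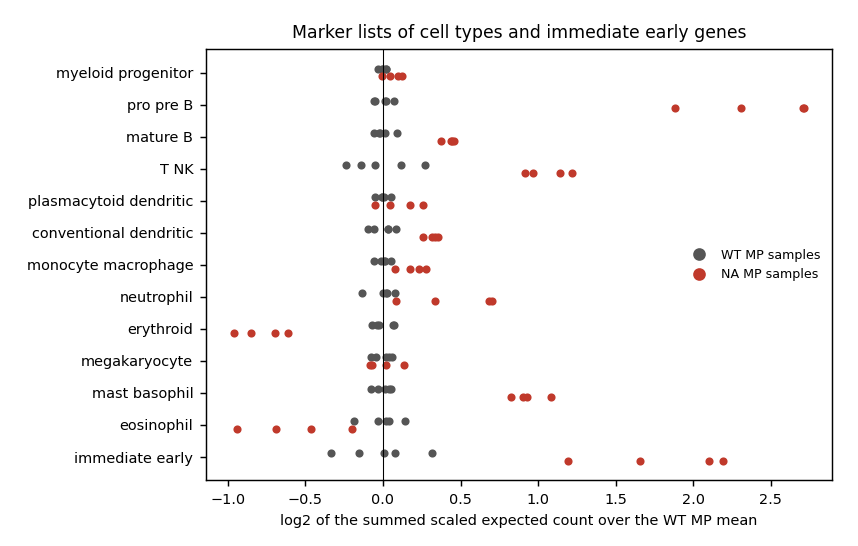
Log2 of each sample's summed scaled expected count over the WT MP mean (x axis) for 13 marker lists (y axis), with WT MP samples in grey and NA MP samples in red. The pro- and pre-B and immediate early sums of all NA MPs lie above those of WT MPs, the erythroid sums lie below, and the plasmacytoid dendritic sums overlap.

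The kit named in the methods is not described there as strand-specific, and strand use in counting is not given in the sources used here. Reads of Irf1, Irf7, Dhx58, Usp18, Oasl1, Ifi35, Ifi47, Gbp2, Psmb8 and Tap1 therefore cannot be told apart from those of the opposite-strand genes that overlap their exons, which for Tap1 is Psmb9.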

How the data were processed

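PolyA RNA of 4 NA MP and 5 WT MP samples was sequenced by the authors. Per the labels, the files were made with bcl2fastq, RSEM and DESeq2 on mm10; versions are not given in the sources used here. The deposited values are a signal: 97.3% to 97.6% of the values above 0 in each sample were whole multiples, within 0.02 of a step, of 1 constant of 0.827 to 1.20, so RSEM expected counts had been divided by a size factor. The deposited totals (6602851 to 6734284) are therefore not depths. A count test had been planned. Because the values are scaled and the remainder were not whole multiples, they were not treated as read counts and no count test was run.

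Ensembl identifiers were matched to symbols through GENCODE M21 (32916 of 37980). Genes at 10 or more in at least 4 samples (11987) were fitted as log2(value + 1) with limma 3.58.1 in R 4.3.3, with trended and robust variances, and Benjamini-Hochberg adjustment was taken over all of them. A gene could pass this filter through 1 group alone, as Ifi27l2a and Oas1g did through the NA MPs. Zbp1, Socs3 and Cxcl10 needed their NA MP values to pass it, and Tlr3 needed its WT MP values. The samples of 1 group were compared with those of the other with no covariate. Windows of 50 bases shared between gene models were counted in GENCODE transcripts. RefSeq promoters (GRCm38.p6) were searched on both strands. Two-sided exact permutation tests of the difference in group means over samples used scipy 1.17.1.

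The members and lists were chosen with earlier results of these data known. Values per sample are given for every member past the threshold with an absolute log2 fold change of at least 0.5 and for Irf1, Irf7, Irf9, Stat2 and B2m, and the other members by range or fold. Outside the members, the interferon receptors, Ly6a, Irf8 and the interferon genes were named. So were up to 3 genes per list with the largest change past the threshold. The class I, Socs1, Psme2, Cmpk2, Isg20 and Pnpt1 values and the mention of Oas1g were added after their values were seen. So were the values of Gbp3, Ifitm1, Isg15 and Rsad2 in full. Alternatives covered scaling, filters, pseudocounts, thresholds, GC content and length, the replicate number as a block, and leaving out each sample. The result for 1 further gene of the naming rule is not reported here.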

Additional observations from a re-analysis of the deposited data

Results flagged for a closer look

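In 108 groups of 4 or 5 samples, those of the genes named with values, 7 held a sample far from the rest by Dixon's test at the 95% level, where chance gives about 5.4. In WT MPs, Irf7 in replicate 3 was at 36.7 against 41.9 to 43.0 in the others, Stat2 in replicate 3 at 306.7 against 255.2 to 267.6, Gbp7 in replicate 1 at 329.1 against 370.5 to 379.2, Psmb8 in replicate 5 at 1397 against 1473 to 1487, and Irf2 in replicate 2 at 318.3 against 267.2 to 279.5. In NA MPs, replicate 2 was lowest for Ly6a (17.2 against 22.3 to 23.1) and Il10rb (305.9 against 365.2 to 372.0). Stat2 changed sign without WT replicate 3, at 0.0060.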

How the results depend on the processing

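With each sample left out in turn, 3625 to 3937 genes were called, 20 to 23 members and 28 to 34 other pathway genes were higher, 1 to 2 and 3 to 5 were lower, 19 to 24 members did not overlap and the members' median was 0.21 to 0.26. The single lower member came without NA replicate 3. A test against a 2-fold change called 189 genes, with 1 higher and 0 lower members and 0 and 0 other pathway genes. At an adjusted p of 0.01, 1 member was lower. Scaling to library size alone gave 7 lower pathway genes, and with no filter the members' median was 0.32. With the promoter window ending at the start, 18 and 7 members held the ISRE and GAS cores. Fitting the replicate number as a block gave 3693 calls, with 21 higher and 2 lower members and 31 and 3 other pathway genes. Same-numbered samples had correlations of deviations of -0.02 to 0.06, so the number does not pair them.

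Ifi35 turned negative with library size (-0.011), the block (-0.029), GC content and length (-0.064) and quantile normalization (-0.000605). Among fits without 1 sample, signs also turned for Ifi35 (-0.082 to 0.045), Igtp (-0.058 to 0.017), Stat2 (-0.061 to 0.0060), Ifnar1 (-0.0040 to 0.043), Ifngr2 (-0.082 to 0.023) and Irf8 (-0.099 to 0.038). The causes were not tested. Other alternatives to the count test that had been planned (edgeR normalization, DESeq2 and unrounded counts) and the protein comparison were not run. The pseudocounts of 0.5 and 4 and quantile normalization were chosen after seeing the data. Low values limit Isg15, Mx1, Rsad2, Ifi27l2a, Tlr3, Socs3, Cxcl10, Oas1g and the untested IFIT genes.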
